A study of Mus musculus with 16 samples.

Results

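The macrophage and myeloid genes described here were 35 of the 29730 genes in a table of raw read counts from mouse skeletal muscle, found by matching each Ensembl identifier to its symbol in the GENCODE annotation of GRCm38. By role they comprised 3 genes of lineage and growth, 10 of the macrophage surface and lysosome, 4 often used as markers of resident macrophages, 3 subunits of complement C1q, 5 Fc receptors and their adaptors, 2 scavenger and pattern receptors, 3 subunits of the phagocyte NADPH oxidase and 5 genes expressed across leukocytes. The annotation classes 34 of them as protein coding and Clec7a as a polymorphic pseudogene, and all 35 were among the 14960 genes that passed the filter on low counts. The RNA came from the tibialis anterior, which lies along the shin, of 16 male mice of strain label C57BL/6N at 7 weeks, 4 in each of 4 groups. Wild-type mice had received either phosphate-buffered saline (WT_PBS) or an antisense oligonucleotide, ASO1, directed against Dnm2 (WT_ASO). Mice labelled Bin1mck-/- had received the same saline (KO_PBS) or the same oligonucleotide (KO_ASO). The labels spell out neither the driver of the Bin1 deletion nor the part deleted, and whole muscle was sequenced, so that fewer macrophages and less RNA per macrophage cannot be told apart.

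Macrophages are phagocytes that depend on signals through the CSF1 receptor (Csf1r) and on the transcription factor PU.1 (Spi1). They take up debris, pathogens and antibody-coated particles through scavenger, complement and Fc receptors and degrade them in lysosomes. Muscle holds resident macrophages, for which Lyve1, Folr2 and Timd4 are common markers, and injured muscle also draws in blood monocytes, which carry Ccr2 and Ly6c2. Names in this text are mouse gene symbols, and levels are read counts scaled to a common library size (CPM), with sizes adjusted by edgeR’s TMM method. A differentially expressed gene (DEG) had an adjusted P value under 0.05 in edgeR's quasi-likelihood test over all genes tested, and log2FC is the log2 fold change with its standard error (SE). A gene is said to be called, or not called, by edgeR wherever no other tool is named.

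Library totals ran from 27591900 to 40862854 counts. Bin1 measured 462.6 to 619.8 CPM in the 8 wild-type samples and 31.7 to 47.7 CPM in the 8 knockout samples. Dnm2 measured 50.2 to 67.7 CPM in the 8 saline samples and 20.7 to 31.1 CPM in the 8 oligonucleotide samples, so both targeted genes followed the labels. The 9 genes used as a check of the tissue, among them the fast troponins Tnnt3 and Tnnc2, summed to between 15.4% and 27.2% of the counts in every sample. The macrophage and myeloid genes summed to far less, 83.0 to 604.8 CPM, and 27 of the 35 had at least 10 counts in every sample. The lowest value was 3 counts, for Fcgr1.

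Summed over the 35 genes, WT_PBS samples held 135, 121, 83.5 and 88.3 CPM, WT_ASO samples 84.9, 83.0, 178 and 143 CPM, KO_PBS samples 320.5, 201, 188 and 605 CPM and KO_ASO samples 92.4, 92.3, 108 and 135 CPM, in each case from replicate 1 to replicate 4. The KO_PBS samples were the highest 4 of the 16, and KO_ASO overlapped with both wild-type groups. KO_PBS replicate 4 stood apart: it was the highest of all 16 samples in 33 of the 35 genes, and KO_PBS replicate 1 was the highest in the other 2, Cd68 and Cd52. Replicate 4 was also high in neutrophil genes. The 11 listed neutrophil genes summed to 2.04, 0.935, 0.731 and 8.85 CPM in KO_PBS and to at most 3.16 CPM in any sample of the other groups, and 2 of the 11 passed the filter (S100a9 and Csf3r, both with an unadjusted P under 0.05 in edgeR for KO_PBS vs WT_PBS and not called by it or by limma-voom, while DESeq2 called 1 of them). Values without KO_PBS replicate 4 are therefore given beside many of the results, and the part of the neutrophil genes in the result was not tested.

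**Figure D1:**
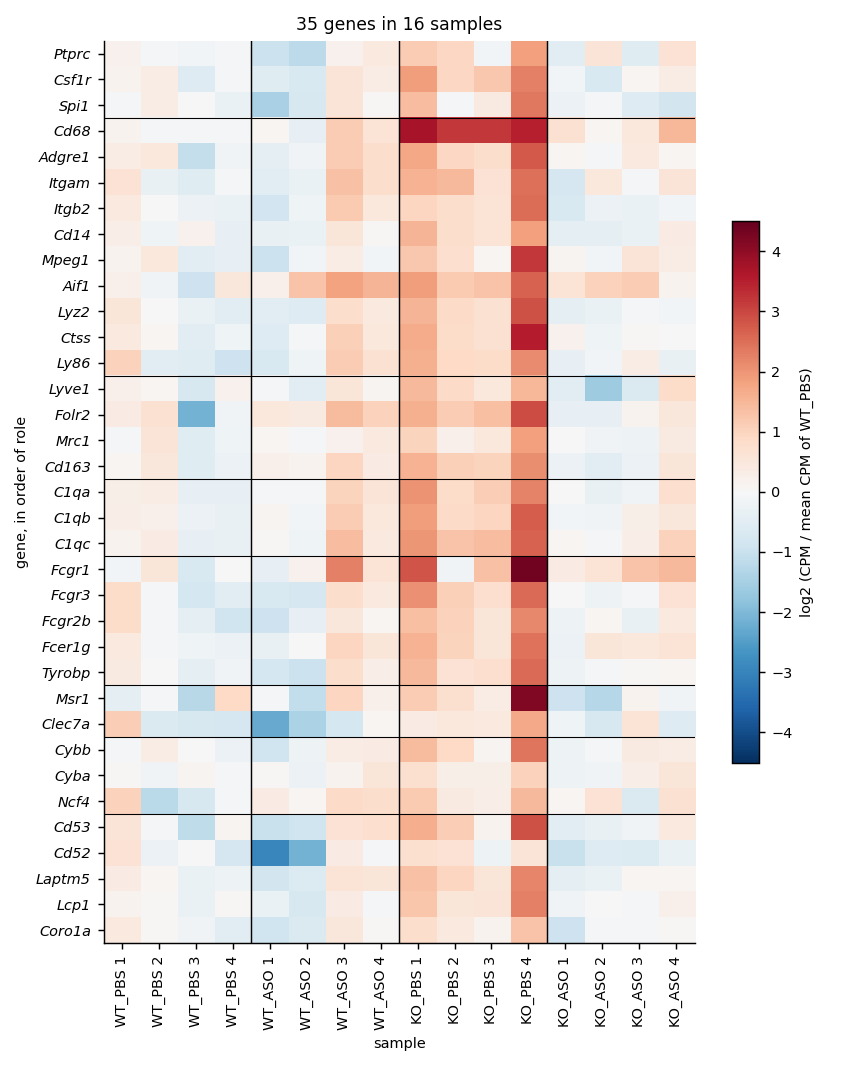
Level of each of the 35 genes (rows, in order of role, separated by thin lines) in each of the 16 samples (columns), as log2 of its CPM over the mean CPM of the 4 WT_PBS samples. The KO_PBS columns are red for nearly every gene and darkest in replicate 4, and Cd68 is the gene that is dark in all 4 of them, while KO_ASO columns stay near the WT_PBS level.

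Under saline, the knockout muscle held more of these transcripts than the wild type. Of the 35 genes, 27 were DEGs with a higher level in KO_PBS and 0 were DEGs with a lower one, where 7.43% of all genes tested were called higher and 5.12% lower. The remaining 8 also had positive values, from 0.48 for Cd52 to 1.34 for Spi1, and 33 of the 35 had an unadjusted P under 0.05, which 27.3% of all genes tested had in either direction. The log2FC had a median of 1.56 (all genes tested -0.01) and ran up to 3.41 for Cd68, and every one of the 27 DEGs changed at least 2-fold, as 3.62% of all genes tested did in this direction. In 20 of the 35 genes every KO_PBS sample lay above every WT_PBS sample, compared with 10.5% of all genes tested. Without KO_PBS replicate 4 the median was 1.03, all 35 remained positive and 13 were called. Leaving out WT_PBS replicate 3 gave 13 calls and leaving out WT_PBS replicate 4 gave 11. The 11 genes called with each of the 16 libraries left out in turn, and under the 7 other fits tried, were Csf1r, Cd68, Cd14, Aif1, Folr2, Cd163, C1qa, C1qb, C1qc, Fcer1g and Lcp1.

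Knockout muscle given the oligonucleotide held less of these transcripts than knockout muscle given saline. Of the 35, 14 were DEGs lower in KO_ASO than in KO_PBS and 0 higher, where 2.83% of all genes tested were called lower and 0.802% higher. All 35 had negative values, with a median log2FC of -1.55 (all genes tested 0.01) and a range from -2.97 for Msr1 to -0.48 for Cyba. In 23 of the 35 every KO_ASO sample lay below every KO_PBS sample, compared with 6.34% of all genes tested. The 14 DEGs were Csf1r, Cd68, Itgb2, Cd14, Lyz2, Ctss, Folr2, Cd163, C1qa, C1qb, C1qc, Tyrobp, Laptm5 and Lcp1. This count rested on single libraries. It was 3 without KO_ASO replicate 1 and 4 without KO_ASO replicate 2, KO_ASO replicate 3, KO_PBS replicate 1 or KO_PBS replicate 4, and it was 24 without KO_PBS replicate 3. Without KO_PBS replicate 4 the median was -1.103 and the range ran from -2.61, for Cd68 and no longer Msr1, to -0.31. Csf1r, Cd68 and Cd163 were called in every one of these fits. Both comparisons share the KO_PBS samples, so their values are given side by side and are not independent of each other.

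**Figure D2:**
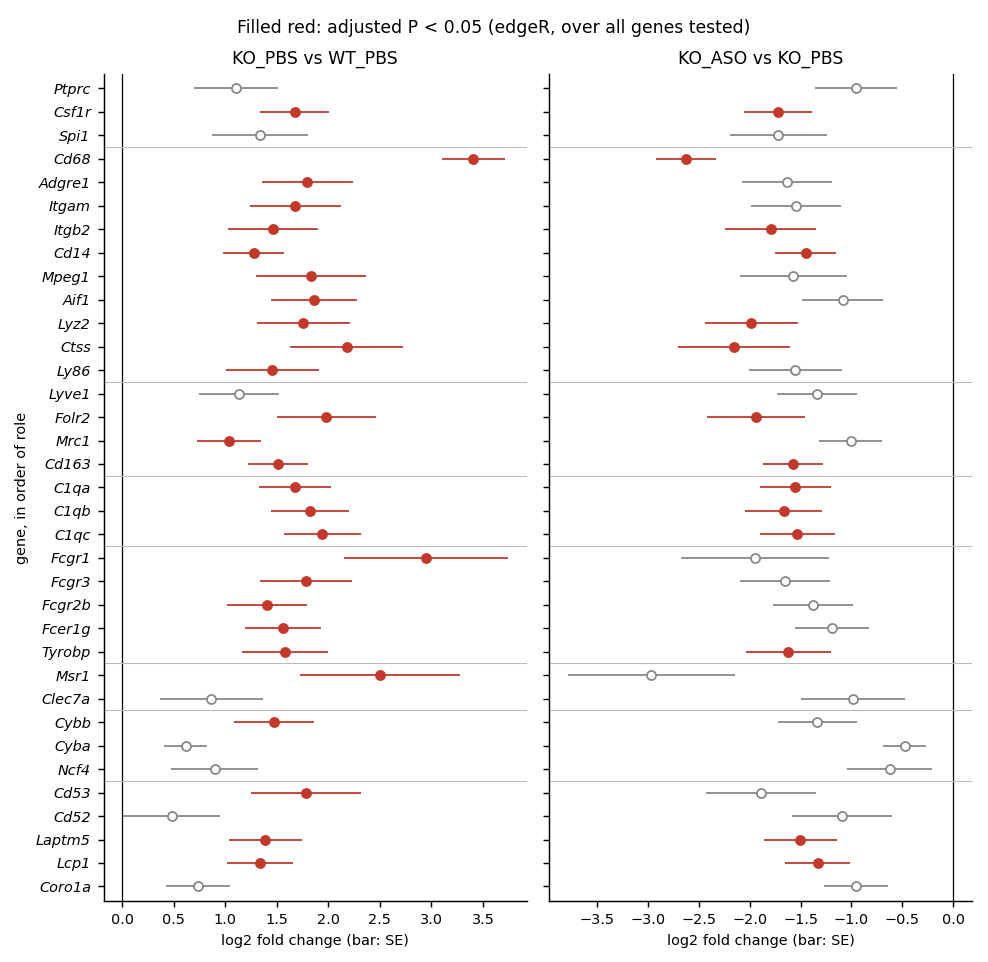
The log2 fold change of each of the 35 genes for KO_PBS vs WT_PBS (left) and KO_ASO vs KO_PBS (right), with bars for the SE and filled red points for an adjusted P value under 0.05 over all genes tested. All points lie above 0 on the left (27 filled) and below 0 on the right (14 filled), and both panels share the KO_PBS samples.

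Among the genes of lineage and growth, the receptor gene was the one called. Csf1r (ENSMUSG00000024621, chromosome 18, 61100598 to 61132149, plus strand, GRCm38), the receptor for the growth factors CSF1 and IL-34, measured 7.46, 8.42, 4.49 and 6.22 CPM in WT_PBS, 4.58, 4.14, 9.90 and 8.34 CPM in WT_ASO, 24.6, 12.7, 15.3 and 31.9 CPM in KO_PBS and 6.05, 4.12, 7.06 and 8.36 CPM in KO_ASO. The 4 KO_PBS samples lay above all other samples, with replicates 1 and 4 above 2 and 3. Its log2FC was 1.67 (SE 0.33, adjusted P = 0.00448) for KO_PBS vs WT_PBS and -1.72 (SE 0.34, adjusted P = 0.0110) for KO_ASO vs KO_PBS, and without KO_PBS replicate 4 it was 1.41 (adjusted P = 0.0134) and -1.47 (adjusted P = 0.0292). Csf1r overlaps Hmgxb3 on the other strand, and the strand setting of the counting is not given, so reads of both may be mixed. Spi1, which encodes PU.1, measured 0.585, 0.782, 0.623 and 0.501 CPM in WT_PBS, 0.229, 0.376, 0.941 and 0.639 CPM in WT_ASO, 1.63, 0.595, 0.8289 and 3.21 CPM in KO_PBS and 0.516, 0.607, 0.415 and 0.348 CPM in KO_ASO. KO_PBS replicates 2 and 3 lay within the wild-type range. The log2FC of Spi1 was 1.34 (SE 0.46, adjusted P = 0.0683) and -1.72 (SE 0.48, adjusted P = 0.0571), so edgeR called neither difference, while DESeq2 and the scaling by library totals called both. Without KO_PBS replicate 4 it was 0.72 (adjusted P = 0.289) and -1.103 (adjusted P = 0.192). Ptprc, which encodes the leukocyte surface phosphatase CD45, measured 2.19, 1.82, 1.74 and 1.85 CPM in WT_PBS, 0.982, 0.839, 2.19 and 2.58 CPM in WT_ASO, 4.19, 3.63, 1.73 and 6.85 CPM in KO_PBS and 1.36, 2.81, 1.31 and 2.996 CPM in KO_ASO. KO_PBS replicate 3 was lower than all 4 WT_PBS samples. Its log2FC was 1.11 (SE 0.41, adjusted P = 0.0868) and -0.96 (SE 0.41, adjusted P = 0.223), and 0.74 (adjusted P = 0.260) and -0.59 (adjusted P = 0.506) without KO_PBS replicate 4.

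All 10 genes of the macrophage surface and lysosome were called higher in KO_PBS than in WT_PBS. All 10 had negative values for KO_ASO vs KO_PBS, and 5 of them were called. Cd68 (ENSMUSG00000018774, chromosome 11, 69664213 to 69666153, minus strand), a lysosomal membrane glycoprotein of phagocytes, had the largest log2FC of the 35 genes for KO_PBS vs WT_PBS. It measured 2.19, 1.86, 1.87 and 1.91 CPM in WT_PBS, 2.06, 1.53, 4.34 and 2.97 CPM in WT_ASO, 25.6, 17.9, 17.6 and 22.2 CPM in KO_PBS and 3.12, 2.08, 2.73 and 5.54 CPM in KO_ASO. No KO_PBS sample was under 17.5 CPM, and no sample of the other groups exceeded 5.54 CPM. The ratio of the group means was 10.6 for KO_PBS over WT_PBS. Its log2FC was 3.41 (SE 0.31, adjusted P = 7.49e-06) for KO_PBS vs WT_PBS and -2.63 (SE 0.29, adjusted P = 2.28e-04) for KO_ASO vs KO_PBS, and the exact permutation test (two-sided, on log2 CPM) gave P = 0.0286 for both, the smallest that 4 samples against 4 allow. Without KO_PBS replicate 4 the log2FC of Cd68 was 3.38 (adjusted P = 3.04e-05) and -2.61 (adjusted P = 7.52e-04). Adgre1, which encodes the F4/80 antigen, measured 1.99, 2.198, 0.752 and 1.43 CPM in WT_PBS, 1.21, 1.42, 3.49 and 2.72 CPM in WT_ASO, 5.35, 3.003, 2.75 and 10.8 CPM in KO_PBS and 1.68, 1.502, 2.18 and 1.71 CPM in KO_ASO. The 4 KO_PBS values of Adgre1 exceeded every WT_PBS value, although WT_ASO replicate 3 reached above KO_PBS replicates 2 and 3. Its log2FC was 1.80 (SE 0.44, adjusted P = 0.0151) and -1.63 (SE 0.44, adjusted P = 0.0520), the latter just over the threshold. These became 1.24 (adjusted P = 0.0495) and -1.07 (adjusted P = 0.159) without KO_PBS replicate 4, and without WT_PBS replicate 4 the first adjusted P was 0.0508.

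Itgam and Itgb2 encode the alpha and beta chains of the adhesion and complement receptor CR3. Itgam measured 0.936, 0.484, 0.415 and 0.577 CPM in WT_PBS, 0.425, 0.492, 1.49 and 1.06 CPM in WT_ASO, 1.79, 1.64, 0.951 and 3.38 CPM in KO_PBS and 0.353, 0.831, 0.588 and 0.906 CPM in KO_ASO, with KO_PBS above WT_PBS in every sample. Its log2FC was 1.68 (SE 0.44, adjusted P = 0.0210), and 1.27 (adjusted P = 0.0723) without KO_PBS replicate 4. The value for KO_ASO vs KO_PBS was -1.54 (SE 0.44, adjusted P = 0.0656). Itgb2 measured 3.25, 2.89, 2.56 and 9.59 CPM in KO_PBS and 1.35 to 2.25 CPM in WT_PBS, so that replicate 4 was far above the other KO_PBS samples. Its log2FC of 1.46 (SE 0.43, adjusted P = 0.0374) and -1.80 (SE 0.45, adjusted P = 0.0379) became 0.81 (adjusted P = 0.148) and -1.15 (adjusted P = 0.0987) without that sample, and both calls were lost. Cd14, the co-receptor for bacterial lipopolysaccharide, measured 1.26, 0.894, 1.17 and 0.802 CPM in WT_PBS, 0.818, 0.839, 1.49 and 1.06 CPM in WT_ASO, 2.98, 1.78, 1.56 and 3.70 CPM in KO_PBS and 0.760, 0.767, 0.831 and 1.32 CPM in KO_ASO. The KO_PBS samples lay above all other samples. Its log2FC was 1.28 (SE 0.29, adjusted P = 0.00965) and -1.45 (SE 0.30, adjusted P = 0.0142), and 1.03 (adjusted P = 0.0337) and -1.21 (adjusted P = 0.0431) without KO_PBS replicate 4. Lyz2, which encodes the lysozyme of myeloid cells, was the most abundant of the 35 per length of transcript, with a level of 18.1 ± 6.01 CPM per kb in WT_PBS (SD, n = 4) and 61.0 ± 47.3 CPM per kb in KO_PBS (SD, n = 4). It measured 34.8, 23.9, 19.4 and 16.9 CPM in WT_PBS, 16.6, 15.8, 40.8 and 32.3 CPM in WT_ASO, 68.0, 43.4, 38.1 and 172 CPM in KO_PBS and 17.3, 19.1, 22.8 and 21.8 CPM in KO_ASO. KO_PBS replicate 4 was the highest, followed by replicate 1 of the same group. Its log2FC was 1.76 (SE 0.45, adjusted P = 0.0221) and -1.99 (SE 0.46, adjusted P = 0.0313), and 1.08 (adjusted P = 0.0537) and -1.31 (adjusted P = 0.0577) without that sample. Lyz2 has a close copy, Lyz1, and reads shared between them may have been lost or split in the counting. Of the remaining genes of this role, Ctss (cathepsin S, a lysosomal protease) had 2.18 and -2.16 and was called both times, and without KO_PBS replicate 4 it had 1.13 (adjusted P = 0.0398) and -1.11 (adjusted P = 0.0920). Mpeg1 (1.83), Aif1 (1.86) and Ly86 (1.46) were called for KO_PBS vs WT_PBS. Mpeg1 measured 7.47, 5.44, 3.46 and 29.4 CPM in KO_PBS and 2.31 to 4.54 CPM in WT_PBS. Without replicate 4 the log2FC of Mpeg1 was 0.77 (adjusted P = 0.125), that of Aif1 1.47 (adjusted P = 0.0296) and that of Ly86 1.15 (adjusted P = 0.128). The call of Aif1 held with every library left out, whereas Ctss, Mpeg1 and Ly86 each lost it at least once.

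**Figure D3:**
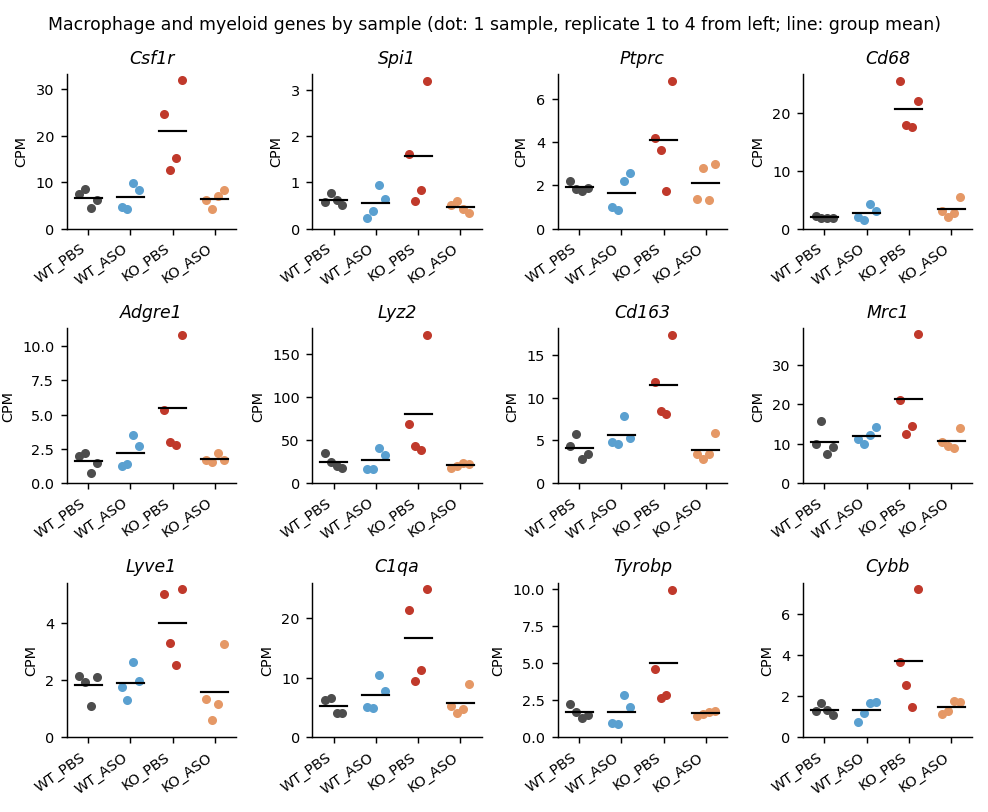
CPM of 12 of the genes in each sample, with 1 dot per sample (replicates 1 to 4 from left to right within a group), a black line at the group mean and an axis that starts at 0. Cd68 in KO_PBS runs from 17.5 to 25.6 CPM, clear of every other sample, whereas Lyz2, Tyrobp and Cybb show KO_PBS replicate 4 well above the other 3.

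Of the 4 genes often used as markers of resident macrophages, edgeR called Folr2, Mrc1 and Cd163 higher in KO_PBS and did not call Lyve1. Lyve1 was called in 5 of the 7 other fits, DESeq2 and limma-voom among them, and Mrc1 kept its call in 4 of the 7. Lyve1, a hyaluronan receptor that lymphatic vessels carry as well, measured 2.16, 1.94, 1.11 and 2.11 CPM in WT_PBS, 1.77, 1.30, 2.64 and 1.97 CPM in WT_ASO, 5.04, 3.31, 2.54 and 5.20 CPM in KO_PBS and 1.33, 0.607, 1.18 and 3.27 CPM in KO_ASO. Every KO_PBS sample lay above every WT_PBS sample, by a small margin, and the log2FC was 1.14 (SE 0.39, adjusted P = 0.0662) and -1.34 (SE 0.40, adjusted P = 0.0718), or 0.99 (adjusted P = 0.146) and -1.20 (adjusted P = 0.159) without KO_PBS replicate 4. Prox1, the transcription factor that defines lymphatic endothelium, had a log2FC of -0.37 (SE 0.25, adjusted P = 0.356). Of the 6 lymphatic genes listed, 1 was called higher (Pdpn, 0.88 (SE 0.26, adjusted P = 0.0335), lost with any of 6 libraries left out) and the median was -0.27. Folr2, a folate receptor, measured 1.32, 1.64, 0.233 and 0.928 CPM in WT_PBS, 1.44, 1.36, 2.76 and 2.11 CPM in WT_ASO, 3.14, 2.29, 2.63 and 7.89 CPM in KO_PBS and 0.787, 0.799, 1.14 and 1.46 CPM in KO_ASO. All KO_PBS values exceeded all WT_PBS values, with replicate 4 far above the rest, and WT_PBS replicate 3 was low. Folr2 overlaps Gm10602 on the other strand. Its log2FC was 1.98 (SE 0.48, adjusted P = 0.0131) and -1.94 (SE 0.48, adjusted P = 0.0373), and 1.42 (adjusted P = 0.0428) and -1.38 (adjusted P = 0.102) without KO_PBS replicate 4. Mrc1, the mannose receptor, measured 9.80, 15.7, 7.26 and 9.18 CPM in WT_PBS, 11.0, 9.78, 12.1 and 14.3 CPM in WT_ASO, 21.1, 12.4, 14.4 and 37.7 CPM in KO_PBS and 10.3, 9.43, 8.96 and 13.9 CPM in KO_ASO. KO_PBS replicates 2 and 3 lay under WT_PBS replicate 2. Its log2FC was 1.04 (SE 0.31, adjusted P = 0.0378), the smallest among the 27 DEGs, and 0.62 (adjusted P = 0.116) without KO_PBS replicate 4. Cd163, the scavenger receptor for haptoglobin and haemoglobin complexes, measured 4.27, 5.74, 2.75 and 3.38 CPM in WT_PBS, 4.75, 4.51, 7.83 and 5.22 CPM in WT_ASO, 11.9, 8.44, 8.07 and 17.4 CPM in KO_PBS and 3.37, 2.81, 3.36 and 5.82 CPM in KO_ASO. The KO_PBS samples lay above all other samples. Its log2FC was 1.51 (SE 0.29, adjusted P = 0.00355) and -1.58 (SE 0.30, adjusted P = 0.00839), and 1.24 (adjusted P = 0.0100) and -1.31 (adjusted P = 0.0213) without KO_PBS replicate 4.

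The 3 chains of C1q, which starts the classical complement pathway and is made largely by macrophages, lie side by side on chromosome 4, with 2.851 kb between C1qa and C1qc and 3.616 kb between C1qc and C1qb. C1qa measured 6.32, 6.55, 4.10 and 4.04 CPM in WT_PBS, 5.07, 4.89, 10.5 and 7.78 CPM in WT_ASO, 21.4, 9.38, 11.3 and 24.9 CPM in KO_PBS and 5.19, 4.15, 4.67 and 8.88 CPM in KO_ASO. The KO_PBS samples lay above all WT_PBS and KO_ASO samples, and WT_ASO replicate 3 reached above KO_PBS replicate 2. In KO_PBS vs WT_PBS, C1qa had a log2FC of 1.68 (SE 0.35, adjusted P = 0.00553), C1qb of 1.82 (SE 0.38, adjusted P = 0.00610) and C1qc of 1.94 (SE 0.37, adjusted P = 0.00356). For KO_ASO vs KO_PBS it was -1.55 (SE 0.35, adjusted P = 0.0234), -1.67 (SE 0.38, adjusted P = 0.0264) and -1.53 (SE 0.37, adjusted P = 0.0338). The 3 values differed by less than their SE within each comparison. Without KO_PBS replicate 4 the first 3 stayed called, at 1.43 (adjusted P = 0.0169), 1.32 (adjusted P = 0.0135) and 1.60 (adjusted P = 0.0104), and the second 3 did not, at -1.30 (adjusted P = 0.0639), -1.17 (adjusted P = 0.0609) and -1.20 (adjusted P = 0.0883).

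The 5 Fc receptors and adaptors all rose in KO_PBS. Tyrobp encodes DAP12, an adaptor that passes on signals from several myeloid receptors. It measured 2.25, 1.71, 1.27 and 1.504 CPM in WT_PBS, 0.982, 0.868, 2.88 and 2.06 CPM in WT_ASO, 4.63, 2.66, 2.85 and 9.96 CPM in KO_PBS and 1.44, 1.60, 1.73 and 1.78 CPM in KO_ASO. KO_PBS lay above WT_PBS in every sample. Its log2FC was 1.58 (SE 0.41, adjusted P = 0.0209) and -1.62 (SE 0.42, adjusted P = 0.0428), and 1.01 (adjusted P = 0.0710) and -1.06 (adjusted P = 0.124) without KO_PBS replicate 4. Fcer1g, the gamma chain that couples Fc receptors to signalling, had a log2FC of 1.56 (SE 0.37, adjusted P = 0.0111) and -1.19 (SE 0.36, adjusted P = 0.0814), with the first call kept under every fit. The inhibitory receptor gene Fcgr2b measured 4.09, 2.23, 1.74 and 1.25 CPM in WT_PBS, 1.21, 1.82, 3.31 and 2.47 CPM in WT_ASO, 5.90, 4.82, 3.39 and 10.5 CPM in KO_PBS and 1.98, 2.46, 1.87 and 3.17 CPM in KO_ASO. WT_PBS replicate 1 lay above KO_PBS replicate 3, so the groups overlapped. Its log2FC was 1.41 (SE 0.39, adjusted P = 0.0277) and -1.38 (SE 0.39, adjusted P = 0.0636). The activating receptor genes Fcgr1 and Fcgr3 had log2FCs of 2.95 (SE 0.79, adjusted P = 0.0237) and 1.79 (SE 0.45, adjusted P = 0.0162) and were not called by edgeR for KO_ASO vs KO_PBS (adjusted P = 0.1585 and 0.0515). In that comparison DESeq2, limma-voom and the scaling by library totals called Fcgr3, as did 6 of the 16 fits with 1 library left out. Without KO_PBS replicate 4 the value for KO_PBS vs WT_PBS was 1.83 (adjusted P = 0.101) for Fcgr1, 1.42 (adjusted P = 0.0515) for Fcgr3 and 1.02 (adjusted P = 0.0894) for Fcgr2b. Fcgr1 was scarce, at 0.0778 to 0.186 CPM in WT_PBS, and KO_PBS replicate 2 (0.113 CPM) lay within that range. Fcgr3, Fcgr2b and Fcer1g lie on chromosome 1, and reads from the similar receptor genes may be split between them. The calls of Tyrobp, Fcgr1, Fcgr3 and Fcgr2b for KO_PBS vs WT_PBS were lost without KO_PBS replicate 4 and also without WT_PBS replicate 3 or WT_PBS replicate 4.

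The scavenger and pattern receptors and the NADPH oxidase moved less evenly. Msr1, scavenger receptor A, was scarce, at 0.130 to 0.577 CPM in WT_PBS and 0.689, 0.510, 0.390 and 5.52 CPM in KO_PBS replicates 1 to 4, with replicate 4 far above the rest. Its log2FC was 2.503 (SE 0.77, adjusted P = 0.0446), and 0.76 (adjusted P = 0.362) without that sample. Clec7a encodes Dectin-1, the receptor for fungal beta-glucan, and measured 1.02, 0.298, 0.285 and 0.276 CPM in WT_PBS, 0.0982, 0.174, 0.273 and 0.500 CPM in WT_ASO, 0.607, 0.652, 0.634 and 1.53 CPM in KO_PBS and 0.407, 0.288, 0.727 and 0.314 CPM in KO_ASO. WT_PBS replicate 1 exceeded 3 of the 4 KO_PBS samples. The log2FC of Clec7a was 0.86 (SE 0.50, adjusted P = 0.284) and -0.98 (SE 0.51, adjusted P = 0.332), or 0.43 (adjusted P = 0.646) and -0.55 (adjusted P = 0.666) without KO_PBS replicate 4. Cybb, which encodes the catalytic subunit of the oxidase, measured 1.26, 1.68, 1.32 and 1.103 CPM in WT_PBS, 0.720, 1.16, 1.67 and 1.72 CPM in WT_ASO, 3.64, 2.52, 1.46 and 7.17 CPM in KO_PBS and 1.14, 1.28, 1.76 and 1.71 CPM in KO_ASO. KO_PBS replicate 3 lay within the WT_PBS range, and the log2FC was 1.47 (SE 0.38, adjusted P = 0.0201), or 0.93 (adjusted P = 0.0718) without KO_PBS replicate 4. Its membrane partner Cyba and the cytosolic subunit Ncf4 were not called by edgeR (0.62 (SE 0.21, adjusted P = 0.0641) and 0.90 (SE 0.42, adjusted P = 0.180)), while Cyba was called in 4 of the 7 other fits, DESeq2 among them. Among further subunits, Ncf1 (1.37 (SE 0.38, adjusted P = 0.0263)) was called and Rac2 (1.03 (SE 0.45, adjusted P = 0.144)) was not, and the call of Ncf1 was lost without KO_PBS replicate 4.

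All 5 genes expressed across leukocytes had positive values for KO_PBS vs WT_PBS, and 3 of them were called. The actin-bundling gene Lcp1 had a log2FC of 1.34 (SE 0.32, adjusted P = 0.0122) and the lysosomal gene Laptm5 one of 1.39 (SE 0.35, adjusted P = 0.0182), and both fell in KO_ASO (-1.33 (SE 0.32, adjusted P = 0.0331) and -1.502 (SE 0.36, adjusted P = 0.0314)). The tetraspanin gene Cd53 had 1.78 (SE 0.53, adjusted P = 0.0384) and -1.89 (SE 0.54, adjusted P = 0.0649). Without KO_PBS replicate 4 the first value was 0.83 (adjusted P = 0.0281) for Lcp1, 0.98 (adjusted P = 0.0574) for Laptm5 and 1.09 (adjusted P = 0.150) for Cd53, and neither fall was called (Lcp1 adjusted P = 0.0684 and Laptm5 adjusted P = 0.0801). Coro1a (0.74 (SE 0.31, adjusted P = 0.139)) and Cd52 (0.48 (SE 0.47, adjusted P = 0.560)) were not called, and Cd52 had the smallest log2FC of the 35 for KO_PBS vs WT_PBS. Both are abundant in lymphocytes. Coro1a overlaps Bola2 on the other strand. T and NK cell genes were near 0: the 10 listed summed to 0.327 to 1.58 CPM over the 16 samples, and the 2 of them that passed the filter, Cd2 and Cd4, were not called for KO_PBS vs WT_PBS. For KO_ASO vs KO_PBS Cd2 was called lower (-2.14 (SE 0.54, adjusted P = 0.0396)), by DESeq2 as well and not by limma-voom, and the call was kept in 7 of the 16 fits with 1 library left out.

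Because all 35 genes had positive values in one comparison and negative values in the other, their promoters were searched for the DNA motif of PU.1. RefSeq promoters on GRCm38.p6, taken as the 250 bases before each start, were at hand for 24 of the 35 genes and for 27025 genes in all. The motif AGGAAGT was read on both strands. It was found in 7 of the 24 genes (29.2%) and in 8.8% of all genes. A longer form that contains it, GAGGAAGT, was found in 1 of the 24 (C1qc) and in 2.79% of all genes. The shorter GAGGAA, which overlaps both, was found in 13 of the 24 (54.2%) and 25.9% of all genes, and the TATA box TATAAA in 3 of the 24 (12.5%) and 14.3% of all genes. No test was made of these shares, and a match is a description of the letters, not of binding. For 6 of the 7 genes with AGGAAGT, chosen to show its place in genes of different roles, 1 match is printed with its flanks, on the strand of the gene and with the motif (or its reverse complement) in capitals.
C1qb (chr4:136886221-136886279): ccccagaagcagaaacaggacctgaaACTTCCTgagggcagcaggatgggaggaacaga
C1qc (chr4:136893077-136893135): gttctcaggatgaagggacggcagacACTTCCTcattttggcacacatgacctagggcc
Lyz2 (chr10:117282340-117282398): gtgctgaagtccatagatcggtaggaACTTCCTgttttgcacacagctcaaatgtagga
Fcgr1 (chr3:96293998-96294056): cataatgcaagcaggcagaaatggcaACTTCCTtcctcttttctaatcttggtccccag
Folr2 (chr7:101857295-101857353): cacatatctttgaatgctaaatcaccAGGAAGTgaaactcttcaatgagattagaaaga
Mrc1 (chr2:14229177-14229235): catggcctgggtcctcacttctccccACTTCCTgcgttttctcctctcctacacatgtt
The match lay from 53 bases before the start in C1qb to 211 bases before it in Mrc1, and it read ACTTCCT, the reverse complement, in all but Folr2. Of these 6 genes, C1qb, C1qc and Folr2 kept their call for KO_PBS vs WT_PBS in every fit, and Lyz2, Fcgr1 and Mrc1 did not. Ptprc, with 2 matches, was not called.

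The oligonucleotide left these genes without a call in wild-type muscle. With edgeR 0 of the 35 were called for WT_ASO vs WT_PBS, as with DESeq2 and limma-voom, where 0.00668% of all genes tested (1 gene) was called. The median log2FC was 0.15, with 26 of the 35 positive, and 1 gene had an unadjusted P under 0.05, as 6.45% of all genes tested did (Aif1, 1.32 (SE 0.43, adjusted P = 0.687)). The sign of the median rested on single libraries, since it was -0.12 with 16 of the 35 positive without WT_ASO replicate 3 and 0.38 with 28 positive without WT_PBS replicate 1. The WT_ASO samples themselves were spread widely: replicates 1 and 2 lay below replicates 3 and 4 in 35 of the 35 genes, a split that 20.6% of all genes tested showed in WT_ASO. In KO_ASO the same held for 16 of the 35 (18.3% of all genes), and in WT_PBS replicates 1 and 2 lay above 3 and 4 in 20 of the 35 (15.9% of all genes). The 6 fibroblast genes listed summed to 336, 650.5, 1197 and 1235 CPM in WT_ASO and 412, 453, 1130 and 1373 CPM in KO_ASO, lower in replicates 1 and 2 as well. The part of fibroblast content in this spread was not tested.

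The difference between the 2 oligonucleotide effects was tested as an interaction. It was negative for all 35 genes, with a median of -1.75 and a range from -3.14 for Msr1 to -0.17 for Clec7a, and 2 of the 35 were called, where 0.515% of all genes tested were called lower. They were Cd68 (-3.11 (SE 0.42, adjusted P = 0.00355)) and Cd163 (-2.05 (SE 0.42, adjusted P = 0.0391)). The next were Folr2 (-2.86 (SE 0.68, adjusted P = 0.0710)) and Aif1 (-2.40 (SE 0.58, adjusted P = 0.0732)). Cd68 kept its call in every fit, at -3.08 (adjusted P = 0.0106) without KO_PBS replicate 4. Cd163 lost its call without any of 11 libraries, KO_PBS replicate 4 among them (-1.78 (adjusted P = 0.0664)), and its adjusted P ran from 0.0174 to 0.104 over the 16 libraries left out. DESeq2 called 12 of the 35. Without KO_PBS replicate 4 the median of the interaction was -1.31, and the range ran from -3.08, for Cd68 and no longer Msr1, to 0.27, with 34 of the 35 negative. Leaving out replicate 3 or 4 of WT_PBS or of WT_ASO also gave 34 negative values. With limma-voom 33 were negative, at a median of -1.34.

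After the oligonucleotide, the knockout samples were compared with each wild-type group. With edgeR 0 of the 35 genes were called for KO_ASO vs WT_PBS (0.0401% of all genes tested) and 0 for KO_ASO vs WT_ASO (0.0735%), and DESeq2 and limma-voom gave 0 in both. An unadjusted P under 0.05 was found for 1 gene in the first comparison (8.22% of all genes tested) and 0 in the second (15.1%). The median log2FC was 0.03 and -0.18, with 20 and 9 of the 35 positive, and single libraries turned both signs. For KO_ASO vs WT_PBS the median was -0.10 (12 positive) without WT_PBS replicate 3, -0.0041 (17 positive) without WT_PBS replicate 4, -0.08 (12 positive) without KO_ASO replicate 4 and 0.20 (27 positive) without WT_PBS replicate 1. For KO_ASO vs WT_ASO it was 0.02 (21 positive) without WT_ASO replicate 3. In KO_ASO vs WT_PBS the farthest from 0 were Fcgr1 (0.999 (SE 0.90, adjusted P = 0.846)), Cd68 (0.78 (SE 0.31, adjusted P = 0.543)) and Aif1 (0.77 (SE 0.44, adjusted P = 0.694)). For Cd68, KO_ASO replicates 1, 3 and 4 lay above every WT_PBS sample and replicate 2 did not, with P = 0.0571 in the exact permutation test (two-sided). These 2 comparisons share the KO_ASO samples with KO_ASO vs KO_PBS, and an adjusted P over the threshold does not show that the levels were equal.

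Resident and infiltrating genes were then set side by side, where 7.43% of all genes tested were called higher for KO_PBS vs WT_PBS. The 4 resident-type members summed to 17.6, 25.0, 11.4 and 15.6 CPM in WT_PBS and 41.2, 26.5, 27.6 and 68.2 CPM in KO_PBS. Of 10 further resident genes listed, 9 were tested and 2 were called higher in KO_PBS: Pf4, a chemokine also stored in platelets (2.195 (SE 0.55, adjusted P = 0.0168)), and F13a1, the A chain of coagulation factor XIII (1.77 (SE 0.46, adjusted P = 0.0202)). F13a1 also fell in KO_ASO (-2.05 (SE 0.46, adjusted P = 0.0262)), a call lost on leaving out any of 5 libraries (replicates 1 and 4 of KO_PBS and replicates 1, 2 and 3 of KO_ASO). Leaving out KO_PBS replicate 4 gave, for KO_PBS vs WT_PBS, a log2FC of 1.28 (adjusted P = 0.0495) for Pf4 and 1.21 (adjusted P = 0.0630) for F13a1, and both calls were lost without WT_PBS replicate 3 or 4. Of the 9, 7 had positive and 2 had negative values for KO_PBS vs WT_PBS. The negative ones were Maf, a transcription factor gene (-0.64 (SE 0.21, adjusted P = 0.0617)), and Cbr2, a carbonyl reductase gene (-0.20 (SE 0.25, adjusted P = 0.647)). Maf measured 141.4, 169.5, 100.2 and 128.0 CPM in WT_PBS and 48.9, 98.5, 90.4 and 107.5 CPM in KO_PBS, so that the groups overlapped in replicate 3 of WT_PBS and replicate 4 of KO_PBS. The summed level of the 10 genes overlapped, at 328.9 to 391.3 CPM in WT_PBS and 324.5 to 492.2 CPM in KO_PBS. Maf, Gas6 and Selenop had the most counts in this sum in every sample, so it says little of the scarcer genes. The 9 tested genes had a median log2FC of 1.18, and 6 had an unadjusted P under 0.05, as 27.3% of all genes tested did. Timd4, a receptor for dying cells, measured 0.0778 to 0.261 CPM in WT_PBS and 0.276, 0.255, 0.293 and 0.419 CPM in KO_PBS, with a log2FC of 1.22 (SE 0.45, adjusted P = 0.0888). Vsig4, a complement receptor, did not pass the filter and had 1 count in the 4 WT_PBS samples together and 8, 0, 2 and 21 counts in KO_PBS replicates 1 to 4.

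Of the 8 infiltrating monocyte genes listed, 3 passed the filter and 0 were called in KO_PBS vs WT_PBS with edgeR, DESeq2 or limma-voom, with 0 at an unadjusted P under 0.05 in edgeR. Ccr2, the receptor for the chemokine CCL2, measured 4.504, 3.02, 2.18 and 2.78 CPM in WT_PBS, 0.360, 1.76, 3.13 and 5.09 CPM in WT_ASO, 7.06, 5.24, 2.66 and 10.3 CPM in KO_PBS and 1.57, 2.40, 2.53 and 2.37 CPM in KO_ASO. KO_PBS replicate 3 lay within the WT_PBS range and replicate 4 was the highest of all samples. Its log2FC was 1.02 (SE 0.51, adjusted P = 0.214) and -1.51 (SE 0.53, adjusted P = 0.133), or 0.68 (adjusted P = 0.464) and -1.18 (adjusted P = 0.306) without KO_PBS replicate 4. Every KO_ASO sample of Ccr2 lay below every KO_PBS sample, and of the 3 monocyte genes tested for KO_ASO vs KO_PBS 0 were called by edgeR or limma-voom and 1 by DESeq2, with 1 at an unadjusted P under 0.05 in edgeR. Plac8 measured 0.468, 0.335, 0.337 and 0.476 CPM in WT_PBS and 0.276, 0.368, 0.293 and 4.24 CPM in KO_PBS, so that replicate 4 alone was high, and its log2FC was 1.67 (SE 0.81, adjusted P = 0.197), or -0.37 (adjusted P = 0.717) without it. The integrin gene Itgal had 0.21 (SE 0.34, adjusted P = 0.747). Ly6c2, Chil3, F10 and Ms4a4c were among the genes under the filter. Ly6c2, the surface marker of inflammatory monocytes, had 2 to 3 counts in each WT_PBS sample and 0, 2, 1 and 17 counts in KO_PBS replicates 1 to 4. Chil3 and Ms4a4c had 38 and 36 counts in KO_PBS replicate 4 and at most 5 in the other KO_PBS samples. Plac8, Ly6c2, Chil3 and Ms4a4c were thus high in 1 library of KO_PBS, the one in which the neutrophil genes were highest.

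**Figure D4:**
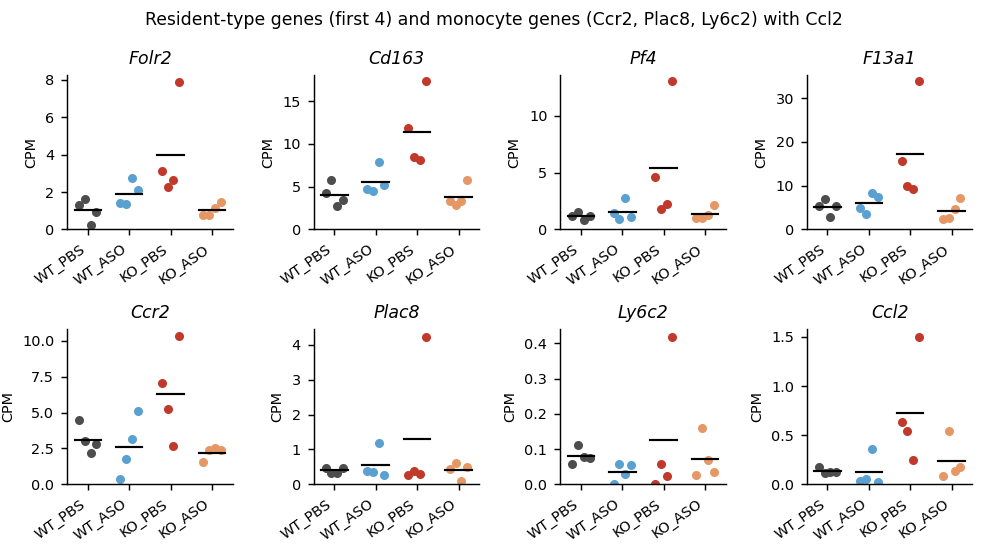
CPM in each sample (dots, replicates 1 to 4 from left to right, with a line at the group mean and an axis from 0) of the resident-type genes Folr2, Cd163, Pf4 and F13a1, the monocyte genes Ccr2, Plac8 and Ly6c2 and the chemokine gene Ccl2. For Folr2, Cd163, Pf4, F13a1 and Ccl2 all 4 KO_PBS samples lie above all WT_PBS samples, while for Plac8 and Ly6c2 only KO_PBS replicate 4 does.

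The levels were next read relative to Csf1r in the same sample, as a ratio of CPM, which shows whether a gene changed in proportion to Csf1r. The ratio of Cd68 to Csf1r was 0.294, 0.221, 0.416 and 0.306 in WT_PBS, 0.450, 0.371, 0.439 and 0.357 in WT_ASO, 1.04, 1.41, 1.15 and 0.695 in KO_PBS and 0.516, 0.504, 0.387 and 0.662 in KO_ASO. All 4 KO_PBS samples lay above the other 12, and KO_PBS replicate 4 was the lowest of its group. The ratio of Mrc1 to Csf1r went the other way, at 0.859, 0.978, 0.943 and 1.18 in KO_PBS and 1.22 to 2.41 in the other groups, again with no overlap. The ratio of C1qa to Csf1r was 0.737 to 0.870 in KO_PBS and 0.649 to 0.913 in WT_PBS, so these groups overlapped. The same was true of Cd163 (0.482 to 0.665 and 0.544 to 0.681), Lyz2 (2.49 to 5.38 and 2.72 to 4.67) and Ccr2 (0.174 to 0.413 and 0.358 to 0.604). These ratios were computed for 10 genes and were not tested.

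**Figure D5:**
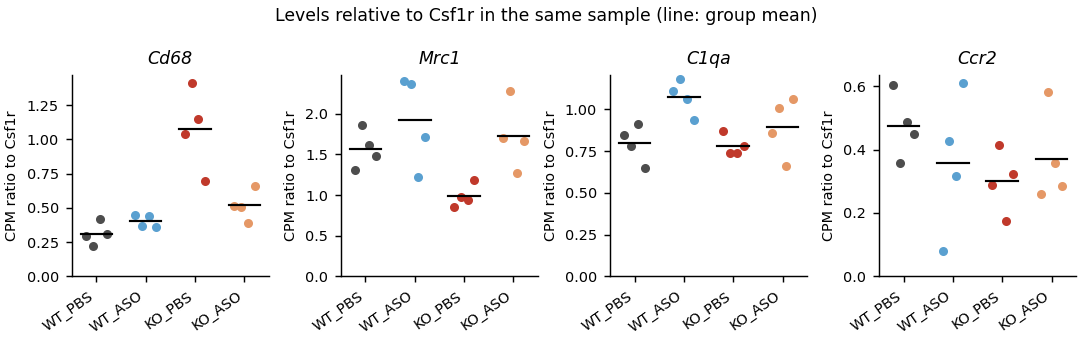
CPM of Cd68, Mrc1, C1qa and Ccr2 divided by the CPM of Csf1r in the same sample, with 1 dot per sample, a line at the group mean and an axis from 0. The Cd68 ratio of KO_PBS, 0.695 to 1.41, lies above every other sample, the Mrc1 ratio of KO_PBS, 0.859 to 1.18, lies below every other sample, and the C1qa and Ccr2 ratios overlap between KO_PBS and WT_PBS.

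A list of 8 genes used for phagocytic macrophages was read beside Cd68, and 3 of the 8 were called higher in KO_PBS, as 7.43% of all genes tested were. Gpnmb, a glycoprotein of lysosomes and melanosomes, measured 2.31, 1.56, 3.92 and 1.88 CPM in WT_PBS, 26.1, 35.7, 38.3 and 44.1 CPM in KO_PBS and 1.68, 2.37, 4.39 and 6.31 CPM in KO_ASO. Lgals3, which encodes galectin-3, measured 3.01, 3.73, 4.15 and 3.23, 24.1, 26.1, 22.5 and 46.2 and 4.32, 9.65, 5.78 and 9.27 CPM in the same groups. Both had KO_PBS samples clear of all others, as Cd68 did, and both kept their calls in every fit of these comparisons. The log2FC of Gpnmb was 3.88 (SE 0.39, adjusted P = 1.83e-05) and -3.30 (SE 0.37, adjusted P = 2.95e-04), and that of Lgals3 3.07 (SE 0.32, adjusted P = 2.50e-05) and -2.04 (SE 0.31, adjusted P = 0.00216). Trem2, a lipid receptor that signals through Tyrobp, had 3.04 (SE 0.85, adjusted P = 0.0293), or 1.26 (adjusted P = 0.171) without KO_PBS replicate 4. The remaining 5 of the list (Spp1, Cd9, Itgax, Fabp5 and Lpl) were not called. Of the 8, 6 had positive and 2 had negative values for KO_PBS vs WT_PBS, with a median of 0.69 and a lowest value of -0.11.

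The ligands and signalling partners of these receptors were read from further lists, beside 7.43% of all genes tested called higher for KO_PBS vs WT_PBS. Of 10 growth factors and attractants, 8 were tested and 2 were called higher in KO_PBS, the chemokine genes Cx3cl1 (1.71 (SE 0.35, adjusted P = 0.00468)) and Ccl2 (2.40 (SE 0.70, adjusted P = 0.0341)). Ccl2 measured 0.175, 0.112, 0.130 and 0.125 CPM in WT_PBS and 0.634, 0.538, 0.244 and 1.504 CPM in KO_PBS, and its call was lost without KO_PBS replicate 4 (1.76 (adjusted P = 0.122)), whereas that of Cx3cl1 was kept in every fit. DESeq2 called 5 of this list and limma-voom 2. The ligands of Csf1r were not called by edgeR: Csf1 had 0.34 (SE 0.19, adjusted P = 0.273) and Il34 -0.42 (SE 0.14, adjusted P = 0.0573). Of 8 receptors for growth factors and attractants, the complement receptor genes C3ar1 (2.31 (SE 0.58, adjusted P = 0.0173)) and C5ar1 (1.93 (SE 0.51, adjusted P = 0.0207)) and the receptor chain Csf2ra (1.37 (SE 0.38, adjusted P = 0.0249)) were called higher, with 3 called by DESeq2 and 1 by limma-voom. Of 13 partners of the adaptors Tyrobp and Fcer1g, 11 were tested and 2 were called, the kinase gene Syk (0.74 (SE 0.23, adjusted P = 0.0393)) and Trem2, with 4 called by DESeq2 and 1 by limma-voom. Each of these 5 genes lost its call without at least 1 library, WT_PBS replicate 4 among them, and all but C3ar1 also lost it without KO_PBS replicate 4. In KO_PBS replicates 1 to 4 C3ar1 had 70, 40, 36 and 337 counts and C5ar1 had 62, 21, 36 and 156. Of 7 class II antigen presentation genes 0 were called with edgeR and 2 with each of DESeq2 and limma-voom. All 7 were positive and 3 had an unadjusted P under 0.05 in edgeR, as 27.3% of all genes tested did. For KO_ASO vs KO_PBS all 7 were negative with an unadjusted P under 0.05, a share not given here for all genes tested. In 5 of the 7 every KO_ASO sample lay below every KO_PBS sample, compared with 6.34% of all genes tested. edgeR called 1 of the 7 lower (2.83% of all genes tested), the class II transactivator gene Ciita (-1.37 (SE 0.35, adjusted P = 0.0421)), a call kept in 6 of the 16 fits with 1 library left out, and DESeq2 called 3 and limma-voom 4. Of 8 transcription factors of myeloid cells 7 were tested and Cebpa (1.22 (SE 0.26, adjusted P = 0.00577)) was called, which kept its call in every fit.

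Markers of other cell types moved with the genotype too. For KO_PBS vs WT_PBS edgeR called 7.43% of all genes tested higher and 5.12% lower, and 27.3% had an unadjusted P under 0.05. Of the 6 fibroblast genes, 3 were called higher in KO_PBS (Pdgfra 0.95 (SE 0.26, adjusted P = 0.0272), Dcn 0.58 (SE 0.17, adjusted P = 0.0343) and Dpt 0.59 (SE 0.18, adjusted P = 0.0447)), and the 6 summed to 763.4 to 1040 CPM in WT_PBS and 1029 to 1764 CPM in KO_PBS. Of the 9 muscle fibre genes, 3 were called lower (Tnnt3 -0.40 (SE 0.10, adjusted P = 0.0153), Tnnc2 -0.40 (SE 0.12, adjusted P = 0.0341) and Atp2a1 -0.43 (SE 0.13, adjusted P = 0.0372)), and the 9 summed to 15.4% to 17.1% of the counts in KO_PBS and 19.1% to 23.1% in WT_PBS. The calls of the 6 genes were each lost with at least 1 library left out, and those of the 3 muscle fibre genes were also lost when libraries were scaled by totals only. Of 6 mast cell genes 5 were tested and Mcpt4 (1.18 (SE 0.35, adjusted P = 0.0364)) was called, a call lost without any of 6 libraries. Of 6 dendritic cell genes 2 were tested, with 0 at an unadjusted P under 0.05, and the 5 blood endothelial genes had a median log2FC of -0.18 with 1 at an unadjusted P under 0.05. In both lists 0 were called with edgeR, DESeq2 or limma-voom. For KO_ASO vs KO_PBS 2.83% of all genes tested were called lower and 0.802% higher, and the share with an unadjusted P under 0.05 is not given here. In this comparison all 6 fibroblast genes had negative values (median -0.74), 5 of them with an unadjusted P under 0.05. Dcn was called lower (-0.68 (SE 0.17, adjusted P = 0.0390)), a call lost without any of 6 libraries. DESeq2 called 3 of the 6 and limma-voom 4. Of the 5 mast cell genes 4 were negative (median -1.13) and 3 had an unadjusted P under 0.05, with 0 called by edgeR, 3 by DESeq2 and 1 by limma-voom. Of the 9 muscle fibre genes 8 were positive (median 0.18) and 0 were called by edgeR or limma-voom and 2 by DESeq2, with 2 at an unadjusted P under 0.05 in edgeR. The part of these cell types in the change of the macrophage and myeloid genes was not tested.

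Within the groups the 35 genes varied together. Over the 595 pairs of genes and 16 samples, the correlation of deviations from the group means had a median of 0.74 and ran from 0.16 to 0.97, which is a description, since the samples share depth and the pairs share genes. The lowest medians over the other 34 genes were those of Ncf4 (0.49), Lyve1 (0.53) and Cd68 (0.55).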

How the data were processed

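The authors deposited 1 table of raw counts, with Ensembl genes in rows and samples in columns and no normalization. Tools named in the submitters' processing notes, without roles, are HTSeq 0.6.1p1, STAR 2.5.3a, Bowtie2 2.2.8 and cutadapt 1.10, and the build is GRCm38 (mm10). The sources used here do not give the Ensembl release, strand setting, dose or schedule. The library kit was stranded and for messenger RNA. Groups came from the sample titles, and each sample is taken to be 1 mouse. Otherwise P values cover technical spread only.

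Counts were fitted in edgeR 4.0.16 (R 4.3.3): filterByExpr by group left 14960 of 29730 genes, TMM scaled the libraries, and all 16 samples entered 1 quasi-likelihood fit (robust, a mean for each group) (common biological coefficient of variation 18.7%). Adjusted P values are Benjamini-Hochberg values over all genes tested. The SE is the size of the log2FC over the root of its F statistic. The exact permutation test used log2 CPM with a prior count of 2. With TMM the median log2FC of all genes for KO_PBS vs WT_PBS was -0.01, and with library totals only it was 0.14. Level per kb is CPM over the exonic length of the gene. The code was tested on simulated data.

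Alternatives were DESeq2 1.42.0, limma-voom with quality weights (limma 3.58.1), other scalings, no filter, the compared groups only, a replicate block and leaving out each library. The 35 genes, the lists and the motifs were chosen with earlier results of these data known. Genes described by sample were the defining ones of each role, and genes outside the 35 came from lists, up to 3 of each by the smallest P in KO_PBS vs WT_PBS plus the defining monocyte, resident, ligand and lymphatic genes. Chil3, Ms4a4c, Maf, Cbr2, Gas6, Selenop and the untested genes of a list were named after their values were seen. Some listed genes are not reported here.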

Additional observations from a re-analysis of the deposited data

Results flagged for a closer look

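Each of the 35 genes was examined in each of the 4 groups for a sample far from the other 3 of its group by Dixon's test. By chance this test marks about 5% of independent sets. The 140 sets were not independent, since they share samples and the genes varied together, so their count cannot be judged against that share. Of the 140 sets, 10 held such a sample. In 6 of the 10 it was KO_PBS replicate 4, as the highest of its group: Itgb2 at 9.59 CPM, Mpeg1 at 29.4 CPM, Ctss at 38.0 CPM, Folr2 at 7.89 CPM, Msr1 at 5.52 CPM and Clec7a at 1.53 CPM. In 3 it was WT_PBS replicate 1, with Cd68 at 2.19 CPM, Ly86 at 1.08 CPM and Clec7a at 1.02 CPM. The last was Cd14 in KO_ASO replicate 4, at 1.32 CPM.

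The effect of the oligonucleotide was called different between knockout and wild-type muscle, by the test of the interaction, for Cd68 (log2 difference -3.11, edgeR adjusted P = 0.00355) and Cd163 (-2.05, edgeR adjusted P = 0.0391). Cd68 kept this call in every fit. Cd163 kept it in 5 of the 16 fits with 1 library left out and lost it without the filter on low counts. For both genes every KO_ASO sample lay below every KO_PBS sample, while WT_ASO and WT_PBS overlapped.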

How the results depend on the processing

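Over the 35 genes and the alternatives run, no called gene changed direction. Those called for KO_PBS vs WT_PBS numbered 27, and 14 without the filter on low counts. For KO_ASO vs KO_PBS they numbered 14, but 24 with library totals only, 26 with DESeq2, 4 without the filter and 3 with the compared groups alone. For the interaction, which needs all 4 groups, they numbered 2, but 12 with DESeq2 and 1 without the filter. Leaving out 1 library at a time gave 11 (without WT_PBS replicate 4) to 31 (without KO_PBS replicate 3) calls for KO_PBS vs WT_PBS, 3 (without KO_ASO replicate 1) to 24 (without KO_PBS replicate 3) for KO_ASO vs KO_PBS, and 1 to 3 (without KO_ASO replicate 4) for the interaction. The count was 0 in every fit run of WT_ASO vs WT_PBS, KO_ASO vs WT_PBS and KO_ASO vs WT_ASO, although with the compared groups alone 34, 33 and 33 of the 35 genes were tested (34 for KO_PBS vs WT_PBS). A fit with a library or group left out holds fewer samples, and otherwise the cause was not tested. The 2-fold condition, DESeq2's size factors and limma-voom kept each count of the 35 genes within 1.5 times. Over all genes tested, KO_ASO vs KO_PBS gave 544 DEGs with edgeR, 1056 with DESeq2, 1190 with limma-voom, 300 with the compared groups alone and 208 to 831 with 1 library left out. KO_PBS vs WT_PBS gave 1878, and 997 to 2137 with 1 library left out. The interaction gave 86, 378 with DESeq2 and 23 to 102 with 1 library left out. KO_ASO vs WT_ASO gave 11 with edgeR, 419 with DESeq2, 44 with the replicate block, 6 with DESeq2's size factors, 2 with limma-voom or the compared groups alone and 2 to 19 with 1 library left out. KO_ASO vs WT_PBS gave 6 with edgeR, 95 with DESeq2 and 4 to 11 with 1 library left out, and WT_ASO vs WT_PBS gave 1, 33 and 1 to 4, with 3 without the filter and 2 with the replicate block.

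The groups share replicate numbers 1 to 4, which the labels do not tie to a litter or day. Deviations from the group means of samples with the same number correlated with r from -0.08 to 0.44 over 24 pairs (median 0.08, 11 above 0.1). Over the 72 pairs of samples with different numbers r ran from -0.38 to 0.20 (median -0.03, 8 above 0.1). The numbers were not taken as pairs because the labels name none, and what they mark is not known. As a hint from the data and not from the design, 14 of the 16 samples correlated best with a sample of their own number. With the replicate number as a block the genes called numbered 25 for KO_PBS vs WT_PBS, 13 for KO_ASO vs KO_PBS, 2 for the interaction and 0 in the other 3 comparisons. Depth limits the scarce genes most: 27 of the 35 had at least 10 counts in every sample, and Fcgr1 had as few as 3.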

Other observations

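Of 10 genes of activation state, 4 passed the filter and 2 were called higher in KO_PBS than in WT_PBS, as 7.43% of all genes tested were. Tgfb1, which encodes transforming growth factor beta 1, had a log2FC of 1.07 (SE 0.22, edgeR adjusted P = 0.00456), a call kept in every fit. The costimulatory gene Cd86 had 1.11 (SE 0.34, edgeR adjusted P = 0.0431), and this call was kept in 7 of the 16 fits with 1 library left out. Nos2, which encodes inducible nitric oxide synthase, had -0.28 (SE 0.23, edgeR adjusted P = 0.458). Of 5 B cell genes, Ighm alone passed the filter. Its log2FC was -1.67 (SE 0.53, edgeR adjusted P = 0.0560), and every KO_PBS sample lay below every WT_PBS sample. It was called by DESeq2 and by limma-voom and not by edgeR. For KO_ASO vs KO_PBS Ighm had 1.73 (SE 0.53, edgeR adjusted P = 0.0936), and again DESeq2 and limma-voom called it. The 5 red cell genes summed to 43.9 to 135.4 CPM in WT_PBS and 44.0 to 154.4 CPM in KO_PBS, with 0 called by edgeR, DESeq2 or limma-voom and 0 at an unadjusted P under 0.05 in edgeR.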
